A study of Ptychidio jordani with 7 samples.

Results

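The library labelled spleen was set against the kidney library of Ptychidio jordani, the ratmouth barbel, a cyprinid fish of fresh water, with attention to genes of immunity and blood. Genes entered the comparison at a deposited FPKM, the fragments per kilobase of a gene scaled to the fragments of its library, of at least 10 in the higher of this pair, which 8578 of 26107 genes met. RNA sequencing of 7 tissues (spleen, kidney, liver, heart, muscle, gill and caudal fin) accompanies a genome assembly of this species, with 1 sample per tissue. The labels call all 7 samples normal and give total RNA extracted with TRIzol; they give no age, sex, number of fish or tissue dissection. Differences between tissues thus cannot be set against a spread between samples, and no test was run.

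In bony fishes the kidney is both an excretory and a blood-forming organ: its interstitium makes red cells, granulocytes and B cells, a role that bone marrow has in mammals. The spleen filters blood, clears worn red cells and recycles their iron, and holds B cells, T cells, macrophages and thrombocytes, the nucleated counterparts of platelets. The liver makes most proteins of plasma, among them transferrin, haptoglobin and complement.

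Levels below are FPKM, and each ratio is log2 of FPKM + 1 in the library labelled spleen over FPKM + 1 in kidney. A gene was called higher or lower at a difference of at least 5-fold, a ratio of 2.32 or more either way. An FPKM is a share of its library, and median-of-ratios scaling over 17448 genes in the 7 libraries, which brings the libraries to a common middle, moved the median ratio of all tested genes by 1.92. Values after this scaling are called scaled. Without read totals in the deposited table, the depth behind each value and its counting error are not known. Fewer cells of a type and less RNA per cell cannot be told apart in such bulk samples.

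The label was checked against marker genes, and the values went against it. Of 58 tested hepatocyte genes, 51 were higher in the library labelled spleen than in kidney. All 58 lay within 2-fold of liver on FPKM + 1 as deposited, as did 82.0% of all tested genes. Counts against liver are given as deposited only, here and below. The log2 scaling factors were -1.13 for the library labelled spleen and -1.89 for liver, so these counts can change with scaling. The minimum admits genes high in this pair and left out 24 of the 82 hepatocyte gene rows. Among those was vtg1 copy Pjo21813, at 4.09 in the library labelled spleen and 20.46 in liver. The whole hepatocyte list held 22.7% of the summed FPKM of the library labelled spleen, 0.149% of that of kidney and 25.0% of that of liver. Fibrinogen beta (FGB, Pjo00985) was 11947 in the library labelled spleen, against 0.26 in kidney and 10018.5 in liver. TLX1 (Pjo13609), a transcription factor that the mouse spleen needs to form, was at most 0.22 in any of the 7 libraries and so does not bear on the label. Symbols for NKX2-5, MADCAM1, MARCO, HMOX1, IGHM, CD4 and CD8A were not matched. The kidney library carried genes of its labelled organ. The anion transporter slc22a6 (Pjo20977) was 0.1 in the library labelled spleen and 116 in kidney. The tubule cadherin CDH17 (Pjo16358) was 0.32 and 49.6. Other kidney markers were weaker in kidney, with SLC12A1 (Pjo17894) at 12.7, NPHS1 (Pjo15560) at 6.06 and pax2a (Pjo13642) at 2.21. Egg coat and oocyte genes held 5.88% of the summed FPKM of the kidney library, and tubule and glomerulus genes 0.271%. Given the hepatocyte values, the sample with the spleen label is called the library labelled spleen throughout.

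Over all 8578 genes, 556 (6.48%) were higher in the library labelled spleen than in kidney and 4472 (52.1%) were lower, with a median ratio of -2.39. After scaling, 1028 (12.0%) were higher and 277 (3.23%) lower, with a median of -0.47. Counts for a gene list are read against these shares.

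**Figure D1:**
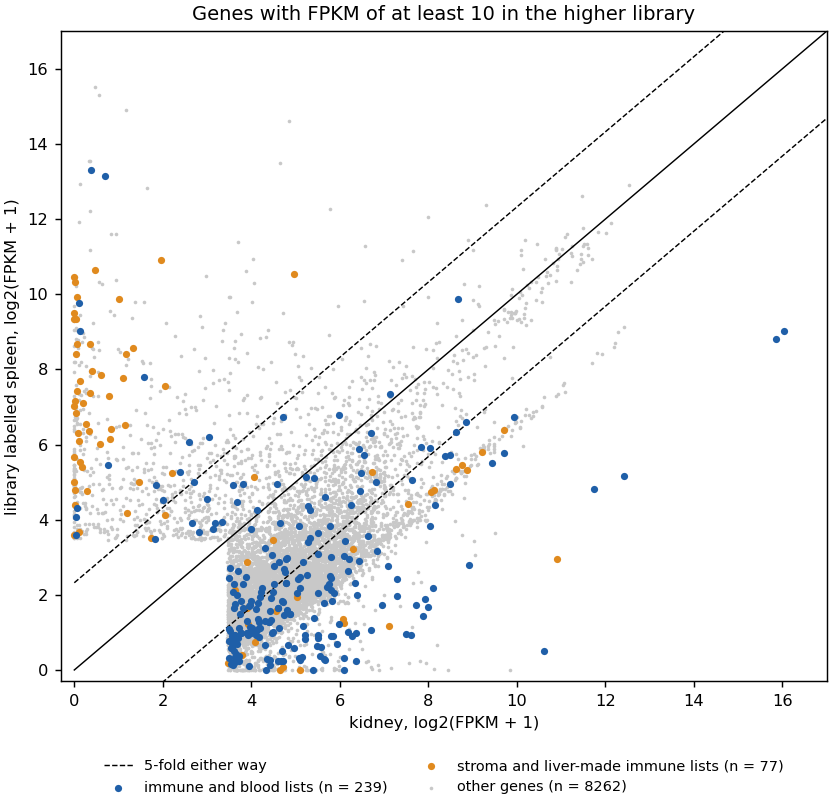
Each point is 1 of 8578 genes, with log2(FPKM + 1) in the library labelled spleen on the vertical axis and in kidney on the horizontal axis, as deposited. Blue points are the 239 genes of the immune and blood lists, orange points 77 further genes of the stroma and liver-made immune lists and grey points the rest; solid and dashed lines mark equality and a 5-fold difference.

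The 14 immune and blood lists held 239 tested genes. Of these, 14 were higher in the library labelled spleen than in kidney, 156 (65.3%) were lower and 69 lay between. Their median ratio was -2.90, against -2.39 over all genes. After scaling 30 were higher and 53 (22.2%) lower, with a median of -1.18, against -0.47 over all genes. The lowest medians were those of red cell and granulocyte genes, and the median of iron handling genes lay above 0.

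**Figure D2:**
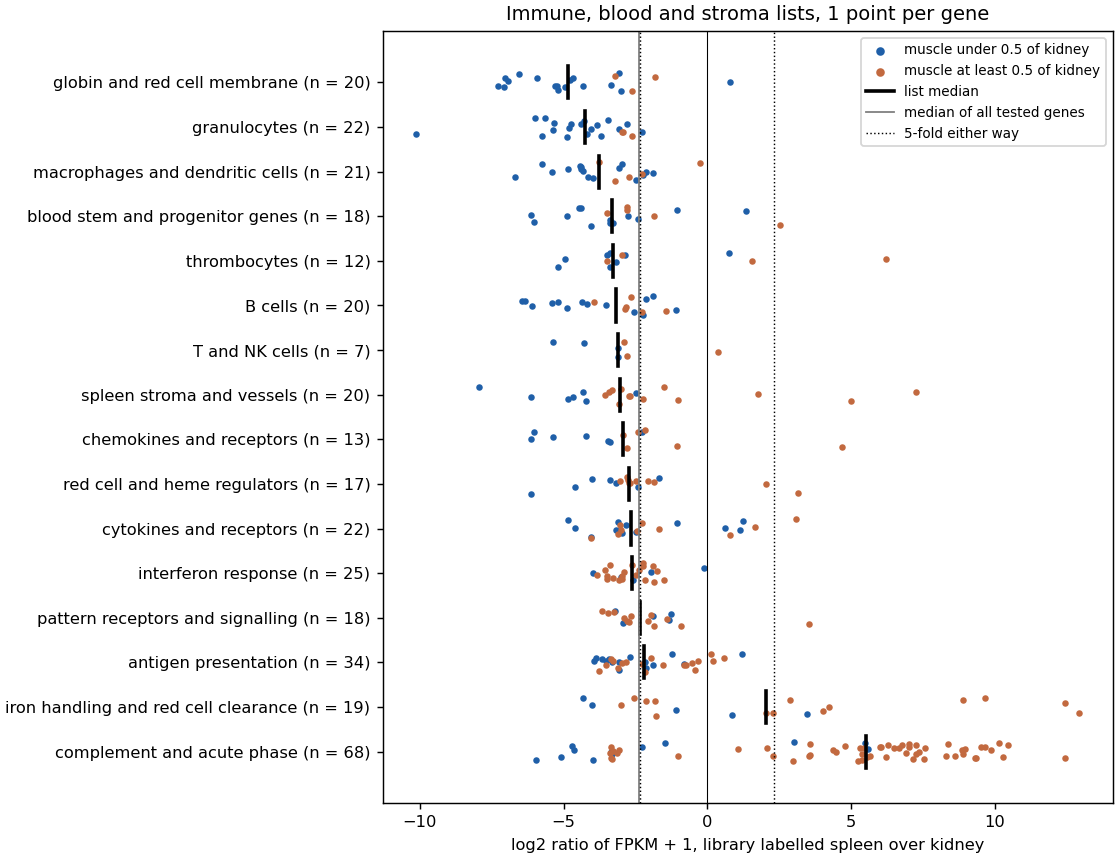
Points are genes of 16 lists by their deposited log2 ratio, library labelled spleen over kidney, with a black bar at each list's median, a grey line at the median of all tested genes (-2.39) and dotted lines at 5-fold. Colour separates genes whose muscle FPKM + 1 was at least 0.5 of that of kidney; the globin and granulocyte lists have the lowest medians, and iron handling and complement are the lists with medians above 0.

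The 3 genes LYZ, CD22 and TIMP3 were taken as markers of granulocytes, B cells and stroma, though copies of TIMP3 were high in different libraries. The lysozyme gene LYZ (Pjo23827), an antibacterial enzyme of granulocytes and macrophages, was 0.41 in the library labelled spleen and 1573 in kidney. Its ratio of -10.12 (scaled -8.65) was the lowest of all tested genes as deposited. In the other libraries it was 0.8 in liver, 15.3 in heart, 85.8 in muscle, 25.6 in gill and 9.24 in fin.

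CD22 (Pjo15997), an inhibitory receptor on B cells, was 0.2 in the library labelled spleen and 49.7 in kidney, a ratio of -5.40 (scaled -4.12). It was 0.39 in liver and between 5.01 and 6.21 in heart, muscle, gill and fin. The table has 16 genes named CD22, of which this is the only one that reached the minimum. One of the others (Pjo15975) had the opposite order, with 6.15 in the library labelled spleen, against 0.11 in kidney and 5.52 in liver.

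TIMP3, an inhibitor of matrix proteases, has 9 copies in the table, and 6 were tested. The highest, a locus outside the named annotation, was 6.76 in the library labelled spleen and 1921 in kidney, a ratio of -7.95 (scaled -5.88). Of the 6, as deposited, 5 were lower and 1 (Pjo11534) was higher, at 30.96 in the library labelled spleen, listed at 0 in kidney and 31.23 in liver. Copies Pjo11238, Pjo11552 and another locus outside the named annotation were 25.8, 39.0 and 54.4 in the library labelled spleen. They were 266, 466 and 595 in kidney, higher still in muscle, at 517, 781 and 1250, and 0.15 to 0.42 in gill. After scaling these copies were within 5-fold, at -1.18, -1.39 and -1.26. Reads of such close copies can be divided between them, so single copies are uncertain.

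Red cell genes made up the lowest list. Of 20 genes for globins and the red cell membrane, 18 were lower in the library labelled spleen and none was higher, with a median of -4.85. After scaling 12 were lower and 1 higher, with a median of -3.32. The alpha globin gene hba (Pjo03032) was 521 in the library labelled spleen and 67752 in kidney, a ratio of -7.02 (scaled -4.84). The beta globin gene hbb (Pjo03031) was 447 and 59808, at -7.06 (scaled -4.89). Globin genes together held 0.167% of the summed FPKM in the library labelled spleen, 17.9% in kidney, 0.443% in liver and 8.71% in heart. That of the library labelled spleen was the lowest of the 7.

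Other red cell genes had the same order. The anion exchanger slc4a1 (Pjo03587), which carries bicarbonate across the red cell membrane, was 3.53 in the library labelled spleen and 274 in kidney, at -5.93 (scaled -3.94). The red cell carbonic anhydrase cahz (Pjo01744) was 0.93 and 180.22, at -6.55 (scaled -4.86). Kel (Pjo16707), the Kell blood group protein in human, was 2.95 and 155, at -5.30 (scaled -3.35). The exception among the 20 in direction, cat (Pjo24933), which encodes catalase, was 109 in the library labelled spleen and 62.5 in kidney, at 0.79 (scaled 2.94).

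Regulators of red cell formation and heme synthesis were lower for 12 of 17 genes and higher for 1, with a median of -2.72; scaled, 2 were lower and 2 higher, with a median of -1.03. alas2 (Pjo09163), the first enzyme of heme synthesis in red cells, was 5.89 in the library labelled spleen and 482 in kidney, at -6.13 (scaled -4.08). The erythropoietin receptor Epor (Pjo02878) was 0.89 and 44.3, at -4.58 (scaled -2.93). Of the other heme enzymes, FECH (Pjo21523) and UROS (Pjo12256) had ratios of -2.78 and -3.02, both past 5-fold as deposited and within it after scaling, at -1.03 and -1.28. Their muscle levels were near those in kidney, at 15.1 against 16.7 for FECH. CPOX (Pjo09228) stayed within 5-fold at -1.85 and turned to 0.23 after scaling. Copies of the transferrin receptor TFRC, which takes up iron, were opposed: Pjo01445 was 3.99 in the library labelled spleen and 79.75 in kidney, and Pjo23782 was 105.68 and 25.1.

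**Figure D3:**
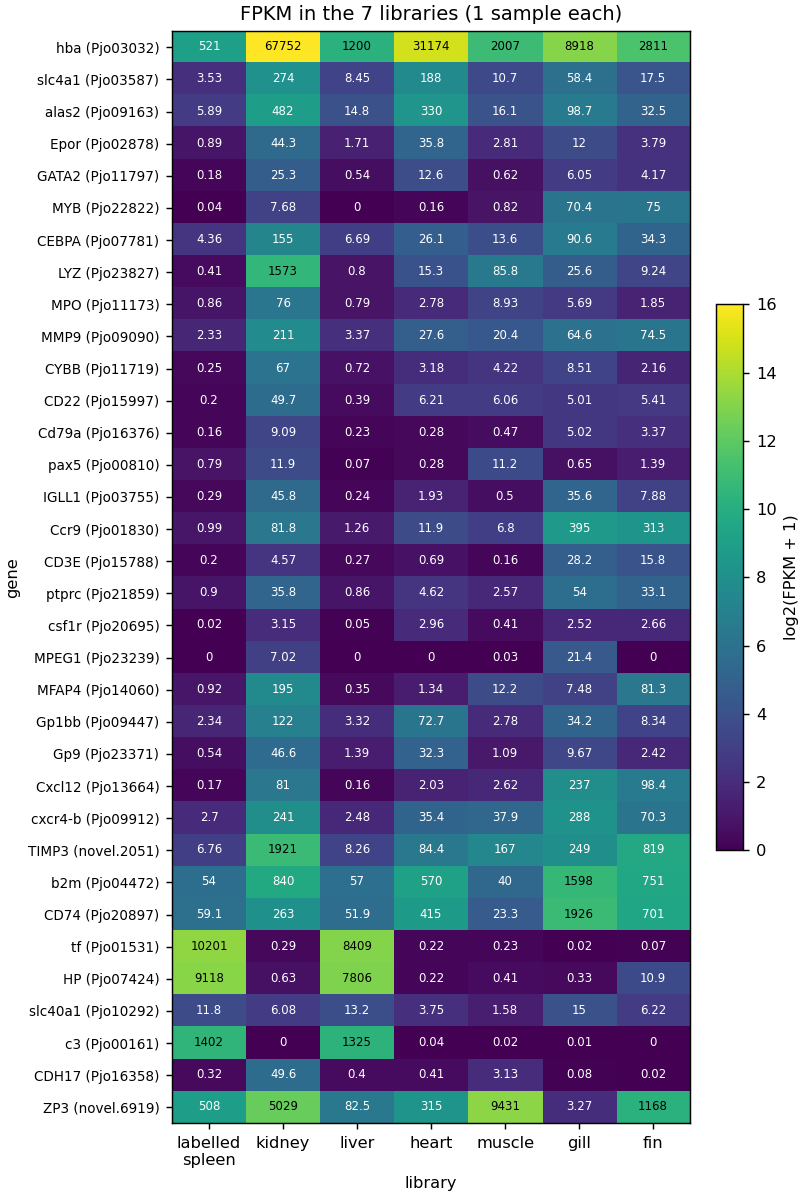
Colour gives log2(FPKM + 1) and the printed number the deposited FPKM of 34 of the 163 named genes (rows, picked for display after their values were seen) in the 7 libraries (columns, labelled spleen first, kidney second). In 30 of the 34 rows the labelled spleen value of FPKM + 1 was within 2-fold of liver, as were 82.0% of all tested genes. Such a row is tf, at 10201 and 8409. LYZ, at 0.41 and 0.8, is under 1 in both libraries, where genes always lie within this limit. hba, slc4a1 and alas2 were lower than in liver and ZP3 was higher.

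Blood stem and progenitor genes were lower in 14 of 18 and higher in 1, with a median of -3.32; scaled, 6 were lower and 2 higher, at -1.54. GATA2 (Pjo11797), a transcription factor of blood stem cells, was 0.18 in the library labelled spleen and 25.3 in kidney, at -4.48 (scaled -3.24). MYB (Pjo22822), another, was under the minimum, at 0.04 and 7.68, with 70.4 in gill and 75.0 in fin. Spi1, which directs myeloid development, was 0.76 and 35.8, at -4.39 (scaled -2.78). The chemokine gene Cxcl12 (Pjo13664), which holds stem cells in mammalian marrow, was 0.17 and 80.95, at -6.13 (scaled -4.87). Its receptor cxcr4-b (Pjo09912) was 2.7 and 241, at -6.03 (scaled -4.09). In gill, Cxcl12 and cxcr4-b were higher than in kidney, at 237 and 288. GATA2 and Spi1 were lower in gill than in kidney, at 6.05 and 16.6.

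Granulocyte genes were lower in 21 of 22 and higher in none, with a median of -4.24, which was 1.85 below that of all genes. Of the 22, 15 were lower after scaling, at a median of -2.82. MPO (Pjo11173), the peroxidase of neutrophil granules, was 0.86 in the library labelled spleen and 76.0 in kidney, at -5.37 (scaled -3.71). MMP9 (Pjo09090), a protease stored in neutrophil granules, was 2.33 and 211, at -5.99 (scaled -4.08). The oxidase subunits CYBB (Pjo11719) and Ncf1 (Pjo05069) were 0.25 and 0.23 in the library labelled spleen and 66.95 and 49.1 in kidney. CSF3R (Pjo16838), the receptor for granulocyte growth factor, was 0.23 and 19.4, at -4.05 (scaled -2.78). All 22 genes lay within 2-fold of liver on FPKM + 1, where genes under 1 in both libraries always do. The gene within 5-fold of kidney was Lect2 (Pjo14357), at 80.4 in the library labelled spleen and 394 in kidney; Lect2 is a chemotactic protein made by the liver in mammals.

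B cell genes were lower in 14 of 20 and higher in none, at a median of -3.18; scaled, 8 were lower, at -1.57. The immunoglobulin light chain-like symbol IGLL5 is carried by several loci outside the named annotation. Those of lowest ratio were 1.71, 2.17 and 0 in the library labelled spleen and 235.6, 253.1 and 67.7 in kidney. In gill these loci were higher than in kidney, at 266.72, 419.15 and 87.16. Another IGLL5 locus was 44.6 in the library labelled spleen, against 697 in kidney and 801 in muscle. Cd79a (Pjo16376), a signalling chain of the B cell receptor, was under the minimum, at 0.16 in the library labelled spleen and 9.09 in kidney. pax5 (Pjo00810), the transcription factor that fixes B cell identity, was 0.79 and 11.9 at -2.85 (scaled -1.31), with 11.2 in muscle. CD74 (Pjo20897), the invariant chain of class II antigen presentation, was 59.1 and 263, within 5-fold at -2.14 and level after scaling at 0.02.

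T and NK cell genes gave only 7 tested members, with 57 further gene rows below the minimum. Of the 7, 6 were lower and none higher, at a median of -3.09; scaled, 2 were lower and 1 higher. Ccr9 (Pjo01830), a chemokine receptor of thymocytes and gut lymphocytes in mammals, was 0.99 in the library labelled spleen and 81.8 in kidney, at -5.38 (scaled -3.68). It was higher than in kidney in gill and fin, at 395 and 313. The phosphatase ptprc (Pjo21859), known as CD45 and common to white cells, was 0.9 and 35.8, at -4.28 (scaled -2.63). CD3E (Pjo15788), a chain of the T cell receptor complex, was low in both, at 0.2 and 4.57, against 28.2 in gill and 15.8 in fin. ZAP70 (Pjo09192), a kinase of T cell signalling, was 0.28 and 3.04.

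Macrophage and dendritic cell genes were lower in 16 of 21 and higher in none, with a median of -3.77; scaled, 9 were lower, at -1.89. MFAP4 (Pjo14060), which marks macrophages in zebrafish, was 0.92 in the library labelled spleen and 195 in kidney, at -6.67 (scaled -4.98). ITGAX (Pjo13117), an integrin of dendritic cells, was 0.21 and 33.5, at -4.84 (scaled -3.56). The defining receptor csf1r (Pjo20695) was 0.02 and 3.15, and the pore-forming gene MPEG1 (Pjo23239) was listed at 0 in the library labelled spleen and 7.02 in kidney; both are under the minimum. The scavenger receptor CD163 of red cell clearing macrophages was 0.3 and 4.28 in the copy highest in the pair (Pjo03308), and 1.74 and 1.88 in another (Pjo16099).

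Thrombocyte genes were lower in 9 of 12 and higher in 1, at a median of -3.27; scaled, 2 were lower and 3 higher, at -1.53. The platelet adhesion receptor chains Gp1bb (Pjo09447) and Gp9 (Pjo23371) were 2.34 and 0.54 in the library labelled spleen and 122 and 46.6 in kidney, at -5.21 and -4.95 (scaled -3.30 and -3.43). The 1 higher gene, F5 (Pjo10198), encodes clotting factor V, which the liver also makes, and was 222 in the library labelled spleen, against 1.97 in kidney and 192 in liver.

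Genes of spleen stroma and vessels were lower in 14 of 20 and higher in 2, at a median of -3.03; scaled, 5 were lower and 3 higher, at -1.17. The chemokine CCL21 (Pjo12035), which guides T cells in mammalian lymphoid tissue, was 13.1 in the library labelled spleen and 261 in kidney, at -4.21 (scaled -2.10). Lyve1 (Pjo07353), a receptor of lymphatic and sinus endothelium, was listed at 0 in the library labelled spleen and 19.2 in kidney. FN1 (Pjo01070), fibronectin, was 381 in the library labelled spleen, against 1.5 in kidney and 352 in liver. TIMP3 copy Pjo11534 was the other higher gene.

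Antigen presentation and pattern receptors were near all genes, of which 52.1% were lower at a median of -2.39. Antigen presentation had 16 of 34 genes lower (47.1%) and none higher, at a median of -2.21; scaled, 0 were lower and 3 higher, at -0.31. b2m (Pjo04472), the light chain of class I molecules, was 54.0 in the library labelled spleen and 840 in kidney, at -3.93 (scaled -1.77). Pattern receptors and their signalling had 9 of 18 lower and 1 higher, at -2.36 (scaled 0 lower and 1 higher, at -0.46). Tlr8 (Pjo10424), a sensor of RNA in endosomes, was 106 and 980, at -3.20 (scaled -1.03). The 1 higher gene was Pglyrp2 (Pjo06346), at 11.05 in the library labelled spleen and 0.03 in kidney. Under the minimum, TLR5 (Pjo20541) and TLR3 (Pjo00872) were 6.95 and 2.34 in the library labelled spleen and 4.67 and 0.84 in kidney. NOD2 (Pjo07787) and Tlr2 (Pjo16303), also under it, had the opposite order, at 0.23 and 0.06 against 1.47 and 0.28. The interferon response had 16 of 25 lower (64.0%, above the share of all genes) and none higher, at -2.61. Scaled, none of its genes was past 5-fold, at a median of -0.97. IRF1 (Pjo20621), a transcription factor of that response, was 2.57 and 55.3, at -3.98 (scaled -2.07).

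Chemokines and their receptors were lower in 9 of 13 and higher in 1, at -2.92; scaled, 4 were lower and 1 higher. CCL8 was the higher one, at 42.8 in the library labelled spleen, against 0.69 in kidney and 38.9 in liver. Cytokines and their receptors were lower in 13 of 22 and higher in 1, at -2.66; scaled, 3 were lower and 6 higher. The inflammatory cytokine il1b (Pjo10623) was 0.56 in the library labelled spleen and 43.5 in kidney, at -4.83 (scaled -3.31). IL1R2 (Pjo10408), its decoy receptor, was 29.4 and 2.61, at 3.07 (scaled 4.85), with 22.4 in liver.

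**Figure D4:**
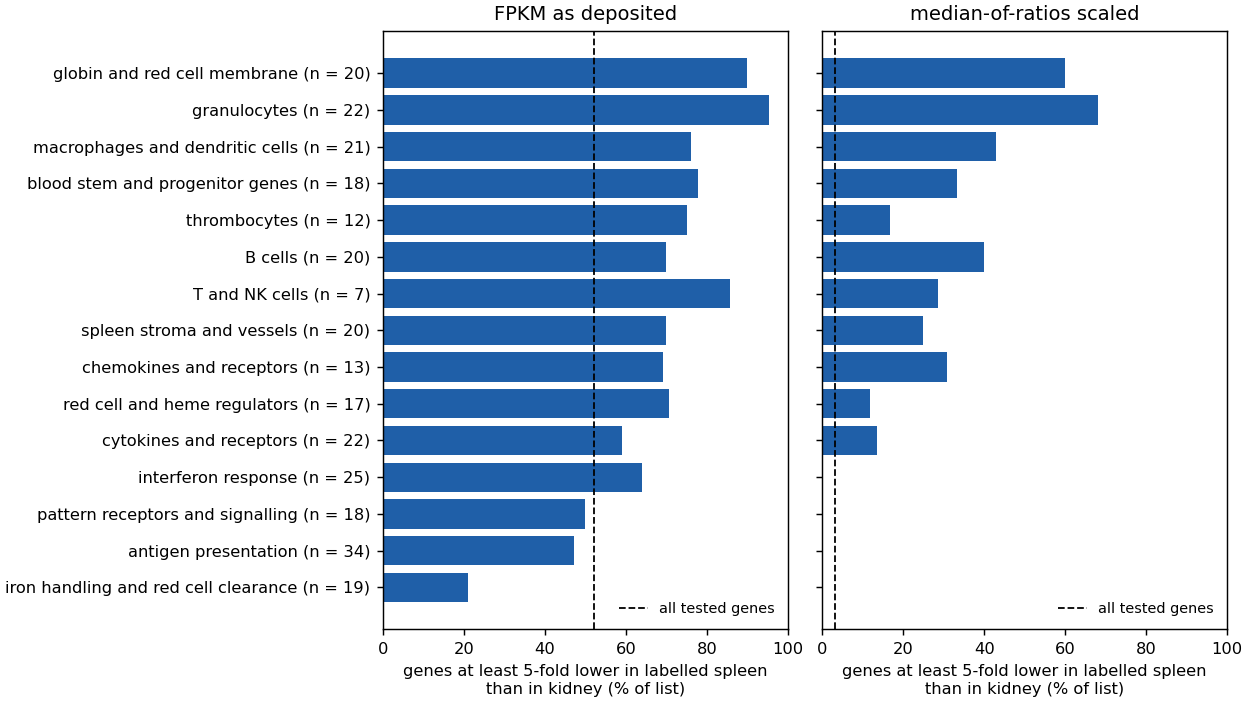
Bars give the percentage of each list's tested genes that were at least 5-fold lower in the library labelled spleen than in kidney, from deposited FPKM on the left and after median-of-ratios scaling on the right. Dashed lines mark the share over all tested genes, 52.1% and 3.23%; after scaling 4 lists (antigen presentation, pattern receptors, interferon and iron handling) have no such gene.

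Iron handling and red cell clearance was the 1 immune or blood list with a median above 0, at 2.03 (scaled 4.14). Of 19 genes 8 were higher and 4 lower; scaled, 11 were higher and 0 lower. The plasma iron carrier tf (Pjo01531) was 10201 in the library labelled spleen, against 0.29 in kidney and 8409 in liver, at 12.95 (scaled 14.25). Haptoglobin (HP, Pjo07424), which binds free hemoglobin, was 9118, 0.63 and 7806. Hemopexin (hpx, Pjo00705), which binds free heme, was 868, 0.07 and 804. Each of these is a plasma protein of the liver.

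Ferroportin (slc40a1, Pjo10292), which exports iron recovered from red cells, was 11.8 in the library labelled spleen, against 6.08 in kidney and 13.2 in liver, within 5-fold as deposited at 0.86 and past it when scaled at 2.77. The biliverdin reductase BLVRB (Pjo18547), which acts on the product of heme breakdown, was 5.78 and 136, at -4.34 (scaled -2.29), with 6.09 in liver. Regulators of hepcidin, the liver hormone of iron balance, were higher in the library labelled spleen than in kidney. Tmprss6 (Pjo06195) was 18.8 in the library labelled spleen and 0.05 in kidney, Hjv (Pjo16033) 15.7 and 0.02, and TFR2 (Pjo22527) 65.8 and 5.04. In liver these regulators were 16.6, 13.2 and 59.1.

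Complement and acute phase genes, most of them made by the liver, were higher in 48 of 68 and lower in 14, at a median of 5.54; scaled, 51 were higher and 4 lower. Copies of complement genes were split between the libraries. c3 copy Pjo00161 was 1402 in the library labelled spleen and listed at 0 in kidney, and copy Pjo00164 was 0.06 and 25.1. Factor B copy Pjo20987 was 646 and listed at 0 in kidney, and copy Pjo20986 was 1.58 and 66.6. SAA1 (Pjo08313), an acute phase protein, was 1.24 and 137, at -5.94 (scaled -4.17), and C1qa (Pjo21100), a complement subunit made by macrophages, was 1.27 and 35.1. The 6 A2m and A2M copies among the 14 lower genes, which encode a protease inhibitor of plasma, were 8.3 to 82.0 in the library labelled spleen, against 77.9 to 840 in kidney and 156 to 1382 in muscle.

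In KEGG annotation deposited with the table, 205 pathways had at least 15 tested genes. Hematopoietic cell lineage had the third lowest median, -3.20, with 19 of 28 genes lower and 2 higher. Of all tested genes 52.1% were lower and 6.48% higher. Scaled, 8 of the 28 were lower and 5 higher, at -1.25, against 3.23% and 12.0% of all tested genes. Complement and coagulation cascades had the highest, 5.42, with 51 of 70 higher and 13 lower. DNA replication was the lowest, at -3.32, with 29 of 30 lower as deposited and 0 after scaling. Mismatch repair and cell cycle were near, at -3.21 and -3.02, so a low rank was not particular to blood formation.

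The immune and blood genes of the library labelled spleen were then set against liver. Of the 239, 217 (90.8%) lay within 2-fold of liver as deposited, against 82.0% over all tested genes. So did all 14 that were higher than kidney, and 526 of the 556 higher genes over all tested genes. This limit was taken on FPKM + 1, so genes under 1 in both libraries always lie within it. CYBB did so at 0.25 in the library labelled spleen and 0.72 in liver. At least 2-fold below liver were 8 of the 239, against 0.350% of all tested genes. All 8 were red cell genes: 2 copies of hba, hbb, 1 copy of hbb2, slc4a1, Kel, ANK1 (Pjo04842), which anchors the red cell membrane, and alas2. Of the 20 globin and red cell membrane genes, 13 lay within 2-fold of liver. Pearson's r of log2(FPKM + 1) over the 239 genes was 0.973 between the library labelled spleen and liver. It was 0.151 between the library labelled spleen and kidney. Over all tested genes these values were near, at 0.959 and 0.239. These correlations run over genes, which are not independent and share their libraries.

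At least 2-fold above liver were 14 of the 239 (17.6% of all tested genes were). All 14 had a muscle FPKM + 1 of at least 0.5 of that of kidney, as had 117 of the 239 in all, and none of the other 122 genes did so. The highest were that IGLL5 locus, at 44.6 in the library labelled spleen, 697 in kidney, 8.51 in liver and 801 in muscle, and the protease CTSS (Pjo16299), which trims the invariant chain, at 19.9, 284, 3.76 and 334. Over all tested genes 1491 of the 1514 that passed this limit had the same muscle level, as had 87.3% of all 8578. Egg coat and oocyte genes moved with it: they held 0.661% of the summed FPKM in the library labelled spleen, 5.88% in kidney, 0.113% in liver and 11.3% in muscle. All 58 of the tested egg genes were lower in the library labelled spleen than in kidney, and 1 was after scaling. The part of such genes in these results was not tested.

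**Figure D5:**
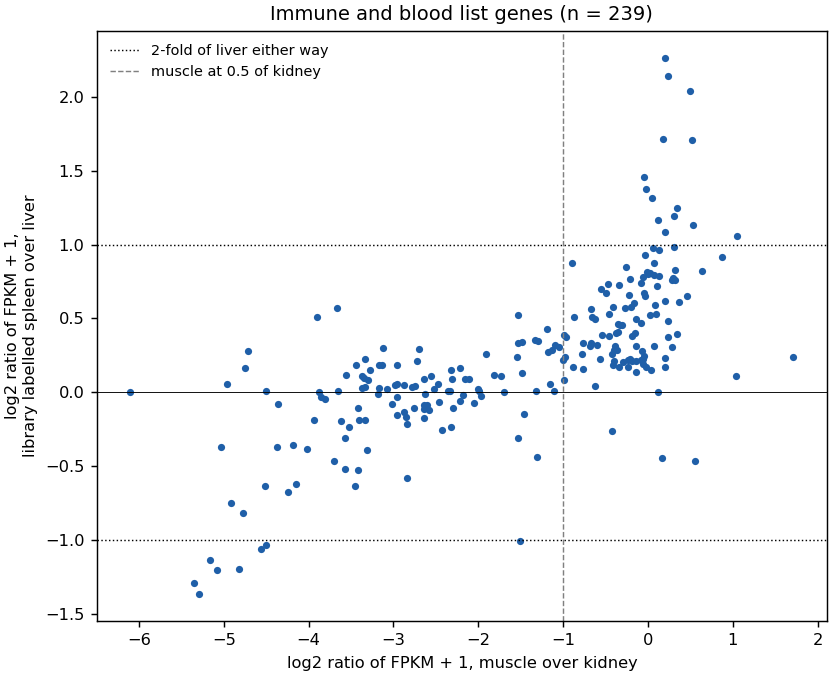
For the 239 immune and blood genes, the log2 ratio of FPKM + 1 in the library labelled spleen over liver (vertical) is plotted against that in muscle over kidney (horizontal). Dotted lines mark 2-fold of liver and the dashed line muscle at 0.5 of kidney; the 14 points above the upper dotted line are all to the right of the dashed line.

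Split by that muscle level, a division added after the data were seen, 96 of the 122 genes with less in muscle were lower in the library labelled spleen than in kidney, as were 60 of the 117 others. The median ratios of these sets were -3.59 and -2.40. Of all 1090 tested genes with less in muscle, 47.8% were lower and 9.54% higher. Of the 7488 other tested genes 52.8% were lower, so the 60 of 117 were near that background. TFR2 was the 1 higher gene among the 122. The split is relative to kidney on FPKM + 1, so a gene at 1 or less in kidney cannot be among them. This rule keeps out higher genes such as tf and HP. After scaling all 53 lower immune and blood genes were among the 122, and 23.4% of the 1090 were lower. Over all tested genes, 255 of the 277 that were lower after scaling were among the 1090. Having less in muscle was thus not particular to the lower immune and blood genes. Among the 53 were LYZ, CD22, MPO, hba, alas2 and GATA2.

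In all, 27 genes (0.315%) were at least 5-fold above kidney and 2-fold above liver in the library labelled spleen. Of the 27, 23 have no symbol and 13 were listed at 0 in liver. Lists were matched by symbol, so only the 4 genes with a symbol could be in one. In the immune, blood, stroma and liver-made lists were 0 of them, and 316 of all 8578 tested genes. With so few that could match, this 0 is not read as a result. The 4 with a symbol were VMO1 at 48.5 in the library labelled spleen, against 0.69 in kidney and 21.0 in liver, dlc (Pjo02164), a Notch ligand, at 42.7, 6.15 and 20.4, FABP7 (Pjo17199), a fatty acid binding protein, at 22.2, 1.39 and 7.88, and ANKS4B (Pjo03792) at 11.0, 0.95 and 3.59.

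The minimum left out many immune genes with low values in both libraries. At its edge, mafb (Pjo11800), a macrophage transcription factor, was just outside at 0.14 in the library labelled spleen and 9.99 in kidney, and DHRS11 (Pjo06072) just inside at 0.8 and 10.01. Below the minimum were 106 of 127 macrophage and dendritic cell rows and 86 of 106 B cell rows. Of these, 85 and 80 were higher in kidney by any amount, with values near 0 included. The share of all genes below the minimum with that order was not taken, so these counts are not read as a result. Among tested genes, 7455 of 8578 were higher in kidney by any amount. The minimum admits genes by their level in the higher library, so the counts above do not describe the genes below it.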

How the data were processed

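Total RNA of 7 tissues, 1 sample each, was sequenced after TRIzol extraction, per the labels' protocols. HISAT2 2.2.1 and RSEM 1.3.3 are listed in the submitters' processing notes. The sources used here give neither a genome build nor an annotation. FPKM per gene were deposited by the authors for 26107 genes, 21296 with a symbol; read totals are not in that table, so no interval is given. Ratios used a pseudocount of 1, which understates changes of low genes, a minimum FPKM of 10 in the higher library and a 5-fold limit, in Python 3.11.15 with numpy 2.4.6, pandas 2.3.3 and matplotlib 3.10.9. Scaling factors were -1.13 for the library labelled spleen and 1.05 for kidney (log2). The fold rule was checked after scaling on simulated libraries with known changes and an even shift of kidney. Scaling removes such a shift by design, so that check does not bear on the uneven composition of these libraries. The genes, the 21 lists and the rules were chosen with earlier results of these data known. Named genes were each list's core genes, the 4 largest ratios and the 4 highest levels per list, 8 genes per side, up to 10 genes above both kidney and liver, and LYZ, TIMP3 and CD22; other copies, edge genes, members that a small count rests on and single genes set beside them were named after their values were seen. Alternatives were other pseudocounts, minimums, folds and scalings and 1 copy per symbol. Removing genes by their muscle level, and the stroma and liver-made lists, was added after seeing the data. Gene sequences were not analysed here.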

Additional observations from a re-analysis of the deposited data

How the results depend on the processing

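With 1 sample per tissue no spread between samples can be had, and read depth is unknown. No paired analysis was possible because each tissue has 1 sample. Median-of-ratios scaling gave 1028 genes higher and 277 lower in the library labelled spleen than in kidney, in place of 556 and 4472, and 60 lower in the 16 pooled lists in place of 178; of 163 named genes 106 kept their side of the limit, 50 fell within it and 7 passed it, and 13 of 21 list medians fell within it. A 2-fold limit gave 6790 lower genes. A 10-fold limit gave 1143 lower, 98 lower in the pooled lists and 17 above both kidney and liver in place of 27. One copy per symbol gave 38 higher pooled genes in place of 61. Without genes at a muscle level of at least 0.5 of kidney, 104 were higher and 521 lower, with 4 and 105 in the pooled lists and 7 above both; this removal also takes genes near 0 in kidney and muscle alike. Without the stroma and liver-made lists 14 pooled genes were higher. Counts under the other pseudocount and minimums and under rescaling without globin, hepatocyte and egg genes stayed within 1.5 times the deposited ones. List medians depended more on the minimum. Without any minimum 14 of the 21 list medians fell within the 5-fold limit. At a minimum of 5, 2 did so, and at a minimum of 20, 2 did so and 1 passed it. Lower genes outnumbered higher ones as deposited, over all tested genes and in the 16 pooled lists. After scaling higher ones outnumbered lower ones in both (80 higher, 60 lower in the pooled lists). The liver-made complement and acute phase list had 51 higher and 4 lower after scaling. In the 14 immune and blood lists lower genes still outnumbered higher ones after scaling, with 53 lower and 30 higher. No named gene past the limit on one side as deposited was past it on the other under the alternatives run.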
